A study of Homo sapiens with 26 samples.

Results

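The libraries of the sh4 hairpin in cultured KELLY cells were taken from the cell culture count table by the line and treatment in the sample titles, and number 6 of the 26 libraries of the series. Of these, 3 were from cells given doxycycline and 3 from cells given the solvent DMSO, both for 72 h. KELLY, an established cell line from a human neuroblastoma, carries an amplification of MYCN. All 6 libraries, DMSO included, came from cells that carry sh4, a short hairpin RNA against RUNX1T1, in a lentiviral vector that also expresses a green fluorescent protein, and doxycycline switches the hairpin on. The 6 libraries of KELLY cells with the empty vector (EV, F1HUTG in the titles), 3 with DMSO and 3 with doxycycline at the same time, served as the background of doxycycline itself. The estimate of the spread was shared with a further 6 libraries, 3 with DMSO and 3 with doxycycline, of KELLY cells with another hairpin construct, shAMB, whose effects are not described here. Genotype labels of the sh4 samples run from "sh4 RUNX1T1" to "sh4 RUNX1T6" and were all read as sh4. The columns say Neg and Pos, which was taken to mean DMSO and doxycycline, and the direction of every result rests on this reading. Whether a line is a pool or 1 clone, and whether replicates were separate cultures, is not given in the sources used here, so that p-values measure only the spread between these libraries, which may be technical.

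RUNX1T1 (also MTG8 or ETO) is a co-repressor that does not bind DNA by itself and joins histone deacetylases and other factors at their sites. Neuroblastoma arises from sympathetic neuroblasts, and its adrenergic cells are held in their state by transcription factors such as HAND2 and GATA3. MYCN, as other MYC proteins, is known to drive genes of ribosome production, nucleotide synthesis and the cell cycle.

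The 6 libraries held 39314392 to 52445803 expected counts each. RUNX1T1, at chr8:91954972-92103286 (hg38), had 34.7, 33.3 and 35.01 CPM in DMSO and 31.2, 33.9 and 30.1 CPM with doxycycline. Doxycycline libraries 1 and 3 lay below every DMSO library and doxycycline library 2 lay among them, so that the groups overlapped. The log2 fold change was -0.11 ± 0.055 (SE, n = 3 per group, edgeR adjusted p = 0.117), and its difference from the change in EV did not pass the test (log2 difference 0.044, edgeR adjusted p = 0.686). A fall passed the test when trends on GC content and gene length were removed from each library (log2 fold change -0.22, edgeR adjusted p = 0.000692). The 95% interval of its change, from -0.23 to 0.0049 on the log2 scale, included 0, so the targeted transcript gave no clear check of the labels, and RUNX1T1 protein was not analysed here.

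The label of the cells was checked with markers. All 12 sympathetic neuroblast markers passed the filter on low counts, of which 3 rose and 7 fell. Their summed level lay between 3703 and 4272 CPM (counts scaled to the library size) in DMSO and between 3083 and 3696 CPM with doxycycline, just short of overlapping. Among markers of other cells, 6 of 10 Schwann cell precursor and glial, 7 of 10 fibroblast, 5 of 10 endothelial, 1 of 10 leukocyte and 3 of 10 epithelial markers passed the filter. The glial sum lay between 23.3 and 24.2 CPM in DMSO and between 34.4 and 35.1 CPM with doxycycline, mostly from PMP22, while SOX10, the defining factor of these cells, was at 0 in all 6 libraries. FAP of fibroblasts, TIE1 of endothelium, CD3E, CD3D and MS4A1 of lymphocytes and CDH1 of epithelium were also at 0 in all 6. Other fibroblast markers were present. The fibroblast sum was the largest of these lists, at 121 to 155 CPM in DMSO and 134 to 191 CPM with doxycycline. PDGFRB (40.4 to 55.2 CPM) and THY1 (36.4 to 46.4 CPM) were its highest members in DMSO. Leukocyte markers summed to at most 1.25 CPM, epithelial ones to at most 4.001 CPM and endothelial ones to at most 15.3 CPM.

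Doxycycline changed 6091 of 14905 genes tested in the sh4 line (40.9%, edgeR quasi-likelihood adjusted p under 0.05), of which 3410 (22.9%) were higher and 2681 (18%) lower. At least a doubling or halving of the level, a log2 size of 1, was seen in 750 of them (5.03%), 467 higher and 283 lower. Without doxycycline library 3 it was seen in 1249 genes (8.29%), and the balance turned to 475 higher and 774 lower. In EV the same treatment changed 14 genes (0.0939%). By the test of the difference itself, 4856 genes responded differently in sh4 than in EV (32.6%), being more positive in sh4 for 2659 (17.8%) and more negative for 2197 (14.7%). That balance also turned without doxycycline library 3, when 7557 genes differed (50.1%), 3565 of them more positive (23.7%) and 3992 more negative (26.5%). Levels of the sh4 doxycycline and DMSO libraries did not overlap for 6151 genes (41.3%). CPM are relative to all RNA counted, so that fewer cells of a type and less RNA per cell cannot be told apart.

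The third doxycycline library stood apart from the other two, and it was examined before the genes. On the first axis of a principal component analysis of the 6 libraries (66.7% of the variance) doxycycline libraries 1 and 2 lay at 34.7 and 28.7 and the DMSO libraries between -32.7 and -9.09, with doxycycline library 3 at -0.78. The second axis (27.3%) set that library at 30.2. Genes were then split into 10 groups of equal size by the GC content of their exons. In the group with the highest GC content the median log2 ratio to the DMSO mean was -0.72 and -0.57 in doxycycline libraries 1 and 2 and 0.22 in library 3. Per 10 percentage points of GC content the log2 ratio moved by -0.33 and -0.25 in libraries 1 and 2 and by 0.10 in library 3. DMSO libraries themselves spread from -0.15 to 0.14 and EV libraries from -0.15 to 0.16, so doxycycline library 3 lay within the range of those libraries and doxycycline libraries 1 and 2 below it.

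**Figure D1:**
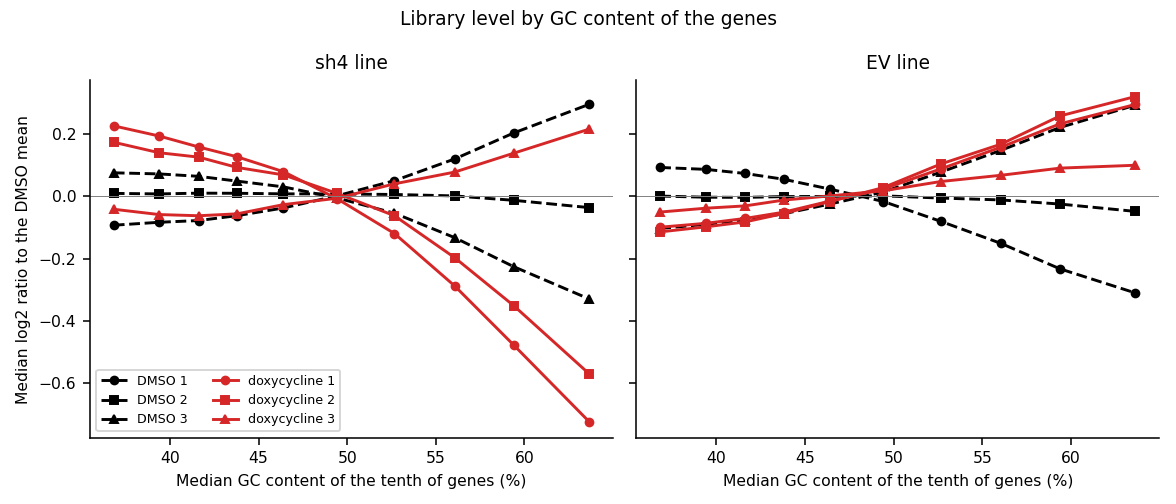
Median log2 ratio of each library to the mean of the DMSO libraries of its line (y axis) for 10 groups of genes ordered by exon GC content (x axis, %), with DMSO libraries in black and doxycycline libraries in red. Doxycycline libraries 1 and 2 of sh4 fall to -0.72 and -0.57 at high GC content, while library 3 rises to 0.22.

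Leaving out doxycycline library 3 raised the number of genes changed to 8050 of 15069 (53.4%), with 3968 higher (26.3%) and 4082 lower (27.1%), and 5628 of these had the same call with all libraries. No gene was called in opposite directions. Removing the GC and length trends gave 8395 of 14563 genes (57.6%), with 4336 higher (29.8%) and 4059 lower (27.9%), and 3 genes with an opposite call. Among 6468 genes of at least 5 CPM that changed without library 3, 17 (0.263%) had a log2 ratio of at least 0.5 in the opposite direction in library 3. All 17 were lower in libraries 1 and 2 and higher in library 3, and their median GC content was 64.8% against 48.4% over all genes tested. The 4 with the widest gap are given as a description, with no test. EIF3C, a subunit of translation initiation factor 3, had 136, 60.3 and 33.7 CPM in DMSO and 15.4, 27.02 and 109.7 CPM with doxycycline. CHTF18, part of a loader of the replication clamp, had 8.73, 5.86 and 3.38 CPM in DMSO and 1.82, 2.36 and 9.67 CPM with doxycycline. Fatty acid synthase, FASN, had 188, 113 and 86.8 CPM in DMSO and 56.7, 68.8 and 189 CPM with doxycycline. SBF1, a phosphatase-like protein without catalytic activity, had 51.7, 35.6 and 23.5 CPM in DMSO and 17.9, 22.2 and 60.4 CPM with doxycycline. In each of the 4, DMSO libraries also spread widely, with library 1 the highest and library 3 the lowest, so that the groups overlapped. EIF3C has a near-identical copy, EIF3CL, and its reads may be split between them. Where leaving out doxycycline library 3 moved the count of changed genes in a list by over 1.5 times or turned its direction, that count stands beside it.

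The genes that rose most were chosen among those whose levels did not overlap, whose effect exceeded that in EV and which were called with and without doxycycline library 3. Neuropeptides, a growth factor receptor and a transcription factor were among the 12. FLI1, an ETS transcription factor of endothelium and blood at chr11:128686535-128813267, had 0.327, 0.256 and 0.269 CPM in DMSO and 2.69, 2.04 and 2.38 CPM with doxycycline. It was low in DMSO and several times higher in every doxycycline library (log2 fold change 3.04 ± 0.22, edgeR adjusted p = 2.62e-08). Its value in EV was 0.98 (edgeR adjusted p = 0.519). NTRK2, the receptor TrkB of brain-derived neurotrophic factor, had 0.481, 0.315 and 0.318 CPM in DMSO and 2.48, 2.45 and 2.18 CPM with doxycycline. Its log2 fold change was 2.66 in sh4 and 1.52 in EV, where it did not pass the test (edgeR adjusted p = 0.122), and the difference passed narrowly (edgeR adjusted p = 0.046). CARTPT, which encodes a neuropeptide of appetite control at chr5:71719275-71721048, was the most abundant of the 12. It had 12.97, 15.04 and 13.2 CPM in DMSO and 70.3, 72.7 and 68.6 CPM with doxycycline, tight in both groups (log2 fold change 2.36 ± 0.080, edgeR adjusted p = 5.4e-12). COL6A5, a chain of collagen VI, had 1.02, 1.02 and 1.03 CPM in DMSO and 6.02, 5.35 and 4.96 CPM with doxycycline. LRIG3, a membrane protein that binds receptor tyrosine kinases, had 0.288, 0.315 and 0.367 CPM in DMSO and 1.7004, 2.06 and 2.11 CPM with doxycycline, and its log2 fold change was 2.598 in sh4 and -0.47 in EV. HSF2BP, a meiotic partner of BRCA2, had 0.577, 0.492 and 0.4897 CPM in DMSO and 3.31, 2.69 and 2.45 CPM with doxycycline. Both groups were apart in each of these. The other 6 rose by log2 values of 2.84 for APCDD1L, a relative of the Wnt inhibitor APCDD1, 2.45 for CRH, corticotropin-releasing hormone, 2.42 for VWF, von Willebrand factor, 2.33 for TAP2, a peptide transporter of antigen presentation, 2.21 for LINC00528 and 2.196 for LINC01024, the last pair being long noncoding RNAs. VWF is an endothelial marker, and of the 5 such markers tested 1 rose, 1 fell and 3 were not called. KDR, another of them, lay between 1.81 and 2.13 CPM in DMSO and between 0.60 and 0.78 CPM with doxycycline.

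The 12 genes that fell most, chosen in the same way, included 3 that act in mitochondria. C12orf75, a small gene of unsettled function at chr12:105235290-105396097, had 19.3, 22.4 and 22.6 CPM in DMSO and 2.03, 2.34 and 2.11 CPM with doxycycline. No library came near the other group, and the log2 fold change of -3.31 ± 0.080 (edgeR adjusted p = 1.96e-13) stood against -0.10 in EV. CPT1A, the enzyme that brings long-chain fatty acids into mitochondria, at chr11:68754620-68844410, had 89.6, 86.8 and 81.2 CPM in DMSO and 16.2, 18.7 and 19.9 CPM with doxycycline. Its log2 fold change was -2.24 ± 0.075 (edgeR adjusted p = 5.26e-12). HIGD1A, a hypoxia-induced protein of the inner mitochondrial membrane, had 142, 157 and 162 CPM in DMSO and 37.4, 32.5 and 28.1 CPM with doxycycline. ETHE1, a mitochondrial sulfur dioxygenase, had 6.07, 5.43 and 4.799 CPM in DMSO and 1.23, 1.27 and 1.33 CPM with doxycycline. The log2 fold changes were -2.23 for HIGD1A and -2.09 for ETHE1, and every doxycycline library lay far below every DMSO library in all 3. CHRM1, the muscarinic acetylcholine receptor M1, had 4.46, 3.15 and 2.84 CPM in DMSO and 0.331, 0.331 and 0.564 CPM with doxycycline. ADAM9, a membrane metalloprotease, had 39.9, 42.7 and 43.7 CPM in DMSO and 9.28, 9.87 and 8.197 CPM with doxycycline. AKR1C1, a steroid-reducing enzyme whose reads may be shared with close paralogs, had 11.6, 12.2 and 11.3 CPM in DMSO and 2.72, 2.32 and 2.896 CPM with doxycycline. The groups of all 3 were apart (log2 fold changes -3.10, -2.205 and -2.15). SCRT1, a neural transcriptional repressor of the Snail family, had 11.99, 9.99 and 7.64 CPM in DMSO and 1.49, 2.005 and 4.03 CPM with doxycycline. VSTM2L, a secreted antagonist of a neuroprotective peptide, had 22.95, 17.2 and 11.2 CPM in DMSO and 2.74, 3.04 and 7.46 CPM with doxycycline. In both genes doxycycline library 3 lay between the other doxycycline libraries and the DMSO libraries, and without it their log2 fold changes went from -1.99 to -2.49 and from -1.97 to -2.57. Both are high in GC content (67.6% and 66.8%). With the GC and length trends removed their log2 fold changes were -1.65 and -1.57, or -1.67 and -1.69 with library 3 left out as well. The remaining 3 were DHRS2, a short-chain dehydrogenase, TRANK1 and KCNAB1, a subunit of potassium channels, with log2 fold changes of -2.57, -2.398 and -2.196. In EV the log2 values of the 24 genes with the largest changes lay between -0.47 and 1.52, and none passed the test there (lowest edgeR adjusted p = 0.122). The 24 were chosen for a difference from EV, and only 14 of all 14905 genes (0.0939%) passed in EV. That none passed there is thus no independent support.

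**Figure D2:**
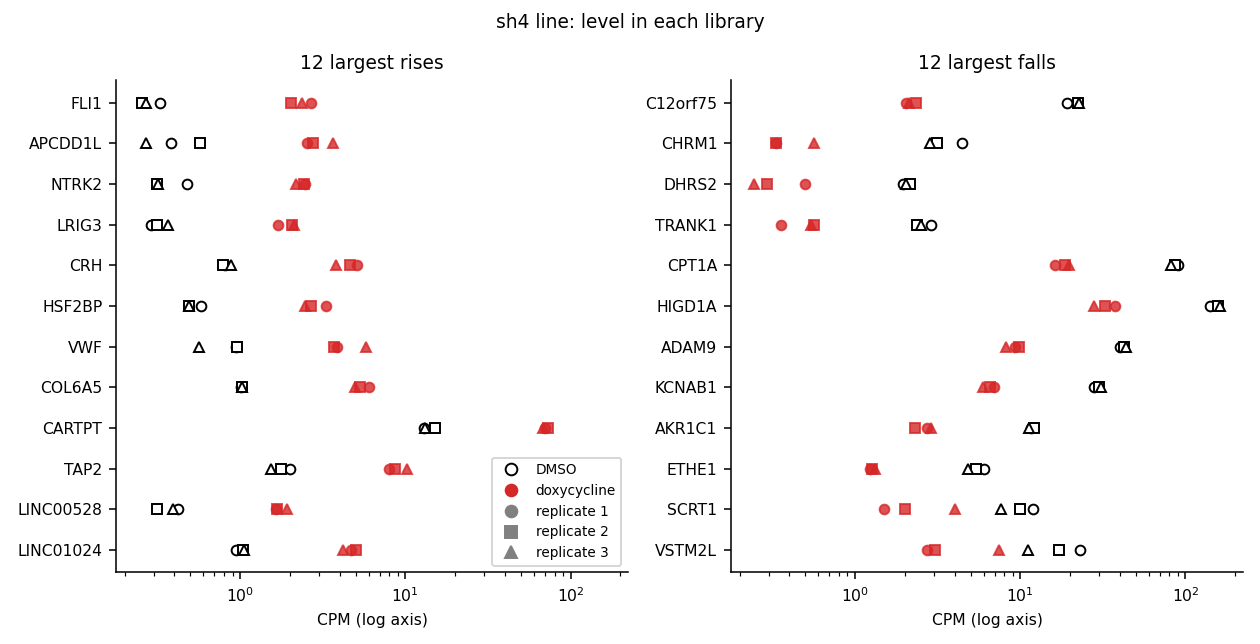
Level in each of the 6 sh4 libraries (x axis, CPM on a log axis) of the 12 genes chosen for the largest rise and the 12 for the largest fall, DMSO open and doxycycline filled in red, with a marker shape per replicate. The groups do not overlap in any of the 24 genes. Replicate 3 of doxycycline lies nearest to DMSO for SCRT1 and VSTM2L and also for others such as CRH and CPT1A, and farthest for some such as VWF.

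Genes were next grouped by function into 41 lists with members tested, and each list is given by its counts beside those of all genes tested (22.9% higher, 18% lower, median log2 fold change -0.0046). The lists overlap in some members. Of 1512 genes in them, 779 changed.

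**Figure D3:**
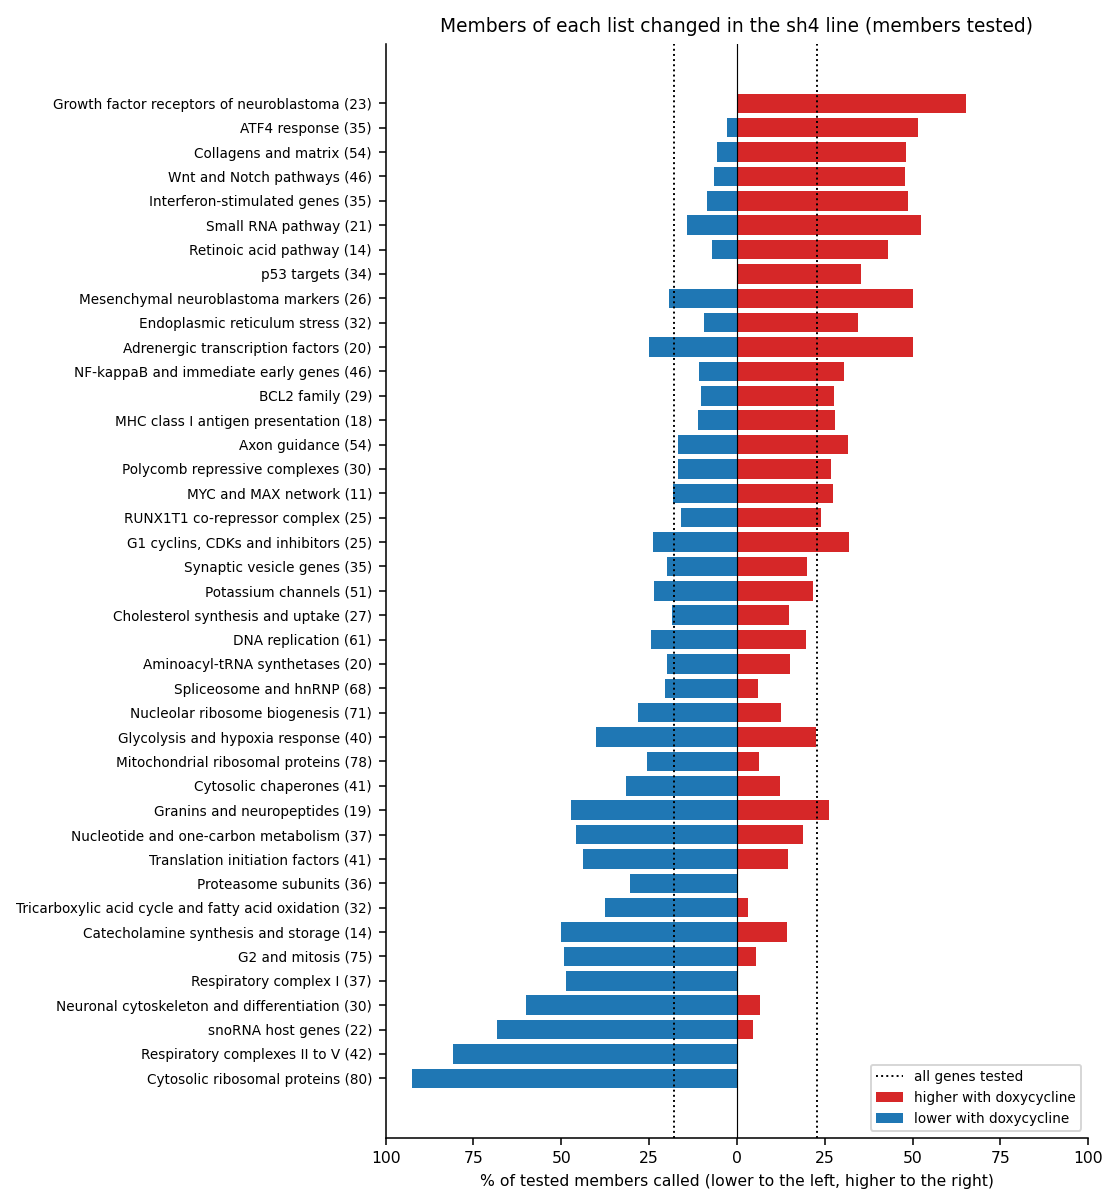
Share of the tested members of each of 41 lists that rose (red, to the right) or fell (blue, to the left) with doxycycline in the sh4 line, in % of members, with the number tested in parentheses and the shares over all genes as dotted lines at 22.9% and 18%. Cytosolic ribosomal proteins and respiratory complexes II to V lie at the bottom with no member higher, and growth factor receptors at the top with no member lower.

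Of the 41 lists, the cytosolic ribosomal proteins had the largest share of members that fell. Of 80 cytosolic ribosomal protein genes tested, 74 fell and 0 rose, with a median log2 fold change of -0.49 in sh4 and 0.15 in EV. Summed over the list, they took 65297 to 69796 CPM in the DMSO libraries and 48317 to 50853 CPM with doxycycline, and the groups were apart. The median log2 ratio to DMSO was -0.55, -0.51 and -0.40 in doxycycline libraries 1 to 3, so the library that stood apart shared the fall. With the GC and length trends removed, 59 fell and the median was -0.24. RPL13A, a protein of the large subunit, had 817, 735 and 617 CPM in DMSO and 300.2, 309.8 and 446 CPM with doxycycline. Doxycycline library 3 was the highest of its group and still below every DMSO library (log2 fold change -1.04). Ribosomal protein genes have many processed pseudogenes, with which reads can be shared. Host genes of small nucleolar RNAs, whose introns carry the guides of ribosomal RNA modification, fell too, with 15 of 22 lower, 1 higher and a median of -0.56 (-0.29 without the trends). SNHG3, at chr1:28505980-28510892, had 118, 109.7 and 107 CPM in DMSO and 38.05, 38.2 and 36.4 CPM with doxycycline. LRRC75A-AS1, also called SNHG29, had 449.5, 464 and 436 CPM in DMSO and 225, 218 and 223 CPM with doxycycline. The libraries of each group lay close together in both genes (log2 fold changes -1.57 and -1.02), and SNHG16 was the 1 member that rose (0.18).

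Ribosomal protein genes and many snoRNA hosts are known for a short pyrimidine run at the start of their transcripts. With most members of both lists lower, RefSeq promoters (GRCh38.p14, 250 bases before to 50 after each start site) were searched on the sense strand for the letters CTTTC in the 25 bases that begin 10 bases before the start site. They were found in 28 of 64 promoters of ribosomal protein genes (43.8%), 4 of 19 of snoRNA hosts (21.1%) and 3.52% of all 27305 promoters. Outside both lists, 91 of 382 tested genes with these letters fell (23.8%) and 76 rose (19.9%), against 17.9% and 23.4% of 11294 genes without them. The 3 ribosomal protein and 2 host genes with the letters, levels that did not overlap and the largest falls are shown with 30 bases before and 30 from the start site on, on the strand of the gene, because their start sequences are what the search compared, and every match in the 25 bases searched is in capitals, of which RPS27 has 2. They lie at chr6:132814539-132814598 (plus strand), chr1:153990732-153990791 (plus strand), chr19:48619149-48619208 (minus strand), chr5:139274071-139274130 (plus strand) and chr4:118278732-118278791 (plus strand). Their log2 fold changes were -0.73 for RPS12, -0.69 for RPS27, -0.67 for RPL18, -0.95 for SNHG4 and -0.89 for SNHG8.
RPS12: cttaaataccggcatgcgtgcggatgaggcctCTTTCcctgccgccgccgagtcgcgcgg
RPS27: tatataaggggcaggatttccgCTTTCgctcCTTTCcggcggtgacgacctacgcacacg
RPL18: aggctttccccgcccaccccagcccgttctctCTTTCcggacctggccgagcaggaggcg
SNHG4: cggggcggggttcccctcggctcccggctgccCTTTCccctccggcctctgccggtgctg
SNHG8: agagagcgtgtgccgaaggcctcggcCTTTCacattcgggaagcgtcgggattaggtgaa

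The letters CACGTG, to which MYC and MAX bind, read alike on both strands and were searched in the whole promoters. They stood in 10.4% of promoters of genes that rose, 10.2% of genes that fell and 9.82% of the others (7.43% of all promoters), and in 22 of 62 promoters of nucleolar ribosome biogenesis genes (35.5%). Promoters matched 11759 of the 14905 genes tested.

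The nucleolar list itself was split. Of 71 members 20 fell and 9 rose, or 32 and 14 without doxycycline library 3. NOLC1, a nucleolar chaperone of small ribonucleoproteins, had 531, 548 and 534 CPM in DMSO and 338, 340.4 and 338 CPM with doxycycline, close together within each group and far apart between them (log2 fold change -0.67 ± 0.034, edgeR adjusted p = 5.36e-10). RRN3, which recruits RNA polymerase I, fell by 0.46. Among 41 initiation factors 18 fell and 6 rose. EIF5A fell by 0.48 and its paralog EIF5A2 rose by 0.73 on the log2 scale. Mitochondrial ribosomal proteins had 20 of 78 members lower, 5 higher and a median of -0.11 (31 lower and 9 higher without library 3), and MRPL10 fell by 0.53. With the trends on GC content and length removed 21 were lower and 17 higher, with a median of -0.018. Aminoacyl-tRNA synthetases gave 4 lower and 3 higher of 20 (6 and 5 without library 3), with glutaminyl-tRNA synthetase QARS lower (log2 fold change -0.76).

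Nuclear genes of the respiratory chain fell as well. Complexes II to V, which pass electrons to oxygen and make ATP, had 34 of 42 members lower and 0 higher (median -0.33), and complex I had 18 of 37 lower and 0 higher (median -0.34). The medians in EV were 0.016 and 0.071. Without the GC and length trends complex I was less uniform, with 13 lower, 2 higher and a median of -0.084, while complexes II to V had 29 lower and 2 higher (median -0.19). NDUFC2, a membrane subunit of complex I, had 67.2, 66.6 and 63.6 CPM in DMSO and 28.6, 25.7 and 26.02 CPM with doxycycline, the widest fall of its list with groups that do not overlap (log2 fold change -1.298 ± 0.058). NDUFS6 had 43.2, 38.5 and 33.1 CPM in DMSO and 24.9, 20.7 and 33.01 CPM with doxycycline. Its groups nearly met at doxycycline library 3 and DMSO library 3, and without the trends its log2 fold change was -0.079 (edgeR adjusted p = 0.362). UQCRC1, a core protein of complex III, and COX5B of cytochrome c oxidase fell as well (log2 fold changes -0.76 and -0.68). The tricarboxylic acid cycle and fatty acid oxidation had 12 of 32 lower and 1 higher (17 and 3 without library 3), among them CPT1A above and mitochondrial isocitrate dehydrogenase IDH2 (-0.57). Genes encoded by mitochondrial DNA were not analysed here.

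In nucleotide and one-carbon metabolism, with the polyamine enzymes, 17 of 37 genes fell and 7 rose. Spermine synthase SMS had 205, 225 and 222 CPM in DMSO and 83.1, 78.4 and 69.8 CPM with doxycycline. OAZ1, the antizyme that holds polyamine synthesis down, had 216, 177 and 145 CPM in DMSO and 47.1, 52.5 and 84.4 CPM with doxycycline. Both fell (log2 fold changes -1.497 and -1.55), while adenylosuccinate synthase ADSS rose by 0.72. Glycolysis and hypoxia genes went both ways (16 lower and 9 higher of 40), with the glycolytic regulator PFKFB3 higher by 0.81. Of 27 genes of cholesterol synthesis and uptake 5 fell and 4 rose, or 12 and 6 without library 3. INSIG1, which retains the sterol sensor in the endoplasmic reticulum, had 67.5, 70.1 and 69.998 CPM in DMSO and 179, 173 and 153 CPM with doxycycline, well above DMSO in every library (log2 fold change 1.28 ± 0.063). MSMO1 rose by 0.59 and SC5D fell by 0.65, both enzymes late in sterol synthesis.

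**Figure D4:**
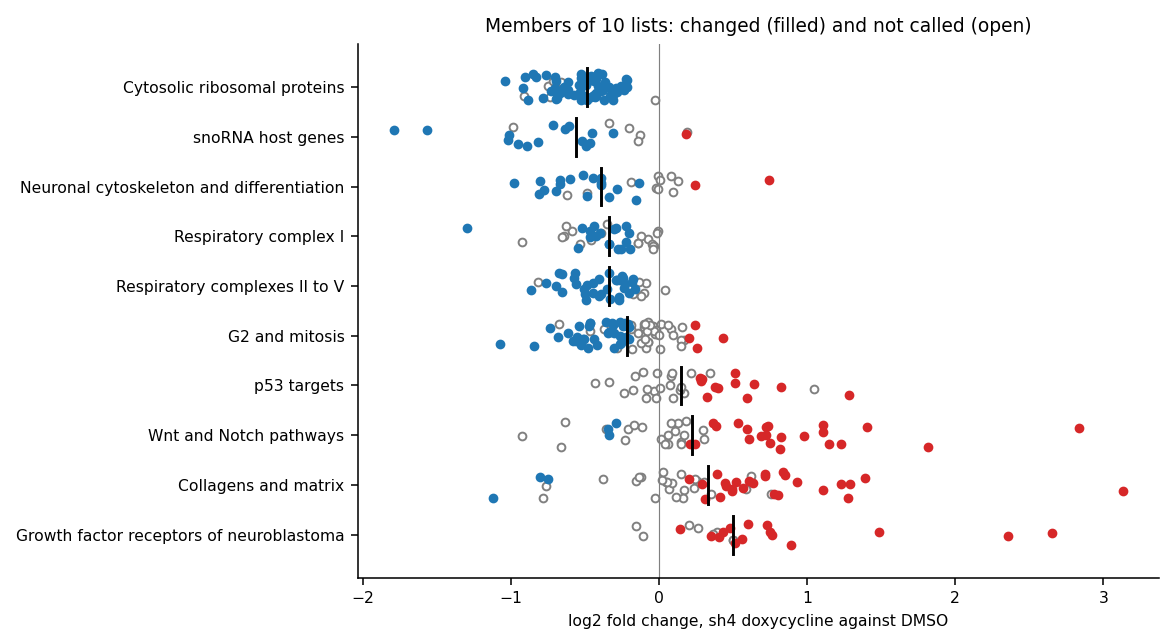
Log2 fold change of doxycycline against DMSO in the sh4 line (x axis) for each tested member of 10 lists (y axis), filled red or blue where the member rose or fell and open where it was not called, with a black bar at the list's median. The bar lies at -0.49 for cytosolic ribosomal proteins, -0.33 for respiratory complexes II to V and 0.50 for growth factor receptors.

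Genes of the neuronal state changed in both directions. Adrenergic transcription factors had 10 of 20 higher and 5 lower. HAND1, a basic helix-loop-helix factor of sympathetic cells, had 260.2, 259 and 253 CPM in DMSO and 502, 462 and 504 CPM with doxycycline, and the groups were far apart (log2 fold change 0.93 ± 0.039, edgeR adjusted p = 7.37e-11). Its relative HAND2 rose by 0.23, ISL1 by 0.43 and the endocrine factor INSM1 by 0.69, while the factors DACH1 (-0.55) and KLF7 (-0.40) fell. The list of catecholamine synthesis and storage had 7 of 14 lower and 2 higher. DDC, which makes dopamine from DOPA, had 209, 211 and 192 CPM in DMSO and 122, 119 and 133 CPM with doxycycline. QDPR, which recycles the cofactor of tyrosine hydroxylase, had 93.9, 95.2 and 94.2 CPM in DMSO and 55.9, 55.9 and 52.6 CPM with doxycycline. CYB561, the electron carrier of chromaffin granules, went the other way with 547, 523 and 478 CPM in DMSO and 734, 735 and 894 CPM with doxycycline. The 3 log2 fold changes were -0.71, -0.79 and 0.61, and no groups overlapped.

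Of 30 genes of the neuronal cytoskeleton and differentiation 18 fell and 2 rose (median -0.39, 0.032 in EV). STMN2, a growth cone regulator of microtubules, had 445, 475 and 489 CPM in DMSO and 296, 279 and 247 CPM with doxycycline. MAPT, the microtubule protein tau, had 26.7, 25.8 and 23.5 CPM in DMSO and 13.2, 13.1 and 17.1 CPM with doxycycline. MAB21L1, a factor of neural development, had 254, 249.9 and 251 CPM in DMSO and 147, 137 and 147 CPM with doxycycline. All 3 fell without overlap (log2 fold changes -0.78, -0.81 and -0.81). DCLK1, the doublecortin-like kinase, rose instead by 0.74. Granins and neuropeptides had 9 of 19 lower and 5 higher. Beside the rises of CARTPT and CRH, somatostatin SST had 32.9, 33.1 and 31.3 CPM in DMSO and 12.9, 11.4 and 13.6 CPM with doxycycline. Vasoactive intestinal peptide, VIP, had 10.5, 10.4 and 11.1 CPM in DMSO and 4.06, 4.44 and 3.44 CPM with doxycycline. Both peptides were lower in every doxycycline library, with log2 fold changes of -1.36 and -1.42. Synaptic vesicle genes split 7 higher to 7 lower of 35, which became 8 to 16 without doxycycline library 3. The synaptic adhesion genes NRXN3 and NLGN3 went opposite ways, by 1.35 and -1.17. For axon guidance the split turned, from 17 higher and 9 lower of 54 to 13 and 19 without library 3, although the semaphorin receptor PLXNC1 (1.37 with and 1.45 without it) and the semaphorin SEMA6A (-0.94 and -0.93) held their values. Potassium channels split 11 higher and 12 lower of 51.

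Among receptor, matrix and Wnt genes more members rose than fell. Among 23 growth factor receptor genes 15 rose and 0 fell (median 0.50, 0.095 in EV). PDGFRA, the alpha receptor of platelet-derived growth factor, had 4.901, 5.37 and 5.53 CPM in DMSO and 10.01, 10.6 and 8.79 CPM with doxycycline, a rise of 0.89 on the log2 scale with no overlap. Collagens and other matrix genes had 26 of 54 higher and 3 lower (median 0.33). COL19A1 had 0.769, 0.865 and 0.881 CPM in DMSO and 1.91, 2.16 and 2.06 CPM with doxycycline, and COL27A1 had 0.788, 0.551 and 0.441 CPM in DMSO and 1.16, 1.52 and 2.06 CPM with doxycycline. These collagens were low in DMSO and higher in every doxycycline library, by 1.29 and 1.39, while the protease inhibitor TIMP1 fell by 0.80. In the Wnt and Notch pathways 22 of 46 rose and 3 fell. WNT3, a Wnt ligand, had 10.6, 8.12 and 9.99 CPM in DMSO and 25.8, 24.9 and 25.1 CPM with doxycycline, and its groups were apart (log2 fold change 1.40). Markers of mesenchymal neuroblastoma cells had 13 of 26 higher and 5 lower, with the homeobox factor PRRX1 (1.16) and the stem cell glycoprotein PROM1 (1.61) higher and N-cadherin CDH2 (-0.60) lower. The retinoic acid pathway had 6 of 14 higher and 1 lower, with the binding protein CRABP2 higher (2.12). Its median was 0.31 in sh4 and 0.22 in EV, and the difference from EV passed the test for 3 members that were more positive and 1 that was more negative. The fibroblast marker sum, which includes PDGFRA, lay between 121 and 155 CPM in DMSO and between 134 and 191 CPM with doxycycline, so that the sums overlapped. Of its 7 members tested 4 rose and 1 fell (median 0.63), and the levels of COL1A1, COL3A1, POSTN and PDGFRA, of which PDGFRA is also in the receptor list, were higher in every doxycycline library than in any DMSO library. The part of such cells in the matrix genes was not tested.

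Genes of mitosis fell while cyclin E rose. Of 75 genes of G2 and mitosis 37 fell and 4 rose (median -0.22, -0.085 in EV), and with the GC and length trends removed 58 fell. FAM83D, a protein of the mitotic spindle, had 99.97, 106 and 104 CPM in DMSO and 50.2, 50.03 and 47.2 CPM with doxycycline, apart in all libraries (log2 fold change -1.07 ± 0.038, edgeR adjusted p = 9.67e-12). MYBL2, the B-Myb factor of late cell cycle genes, had 233, 189 and 151 CPM in DMSO and 81.5, 90.2 and 147 CPM with doxycycline, and doxycycline library 3 came close to the DMSO group (log2 fold change -0.85, -1.15 without it). DNA replication genes split 12 higher and 15 lower of 61. CCNE1, cyclin E1, had 23.4, 24.2 and 25.05 CPM in DMSO and 57.2, 54.9 and 54.9 CPM with doxycycline. E2F7, a repressor of E2F targets, had 41.9, 43.2 and 43.8 CPM in DMSO and 89.6, 90.7 and 79.2 CPM with doxycycline. MCM4, a subunit of the replicative helicase, had 360.1, 361 and 351 CPM in DMSO and 185, 179 and 184 CPM with doxycycline. Cyclin E1 and E2F7 were higher and the helicase gene lower in every doxycycline library, with log2 fold changes of 1.202, 1.01 and -0.97. CCNE2 rose by 0.83 and their partner kinase CDK2 fell by 0.66. The activator E2F2 fell by 0.55. G1 cyclins, kinases and inhibitors as a list gave 8 higher and 6 lower of 25.

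Targets of p53 had 12 of 34 members higher (35.3%) and 0 lower. Over all genes tested 22.9% were higher and 40.9% changed in all. Without doxycycline library 3 the counts for p53 targets were 14 higher and 3 lower. With the GC and length trends removed they were 16 and 3. BTG2, an antiproliferative gene, had 38.9, 41.3 and 41.2 CPM in DMSO and 97.2, 101 and 97.4 CPM with doxycycline, apart in all libraries (log2 fold change 1.28), and DDB2, a DNA damage sensor, rose by 0.83. In the BCL2 family 8 of 29 rose (27.6%) and 3 fell (10.3%). In all 37.9% of its members changed, near the 40.9% over all genes tested, and its median was 0.056. Among members of at least 1 CPM whose groups did not overlap, the 2 that rose most were BH3-only genes, which promote cell death. BCL2L11, which encodes BIM, had 11.97, 11.5 and 11.9 CPM in DMSO and 30.9, 31.2 and 27.95 CPM with doxycycline. HRK had 1.903, 1.77 and 1.71 CPM in DMSO and 5.24, 5.39 and 5.25 CPM with doxycycline. The groups of both were apart, with log2 fold changes of 1.35 and 1.56, and BCL2L13 fell by 0.43.

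In the lists of the ATF4 response, endoplasmic reticulum stress, interferon-stimulated genes, antigen presentation and NF-kappaB more members rose than fell. Over all genes tested more rose than fell too (22.9% against 18%). The shares higher in these lists were 51.4%, 34.4%, 48.6%, 27.8% and 30.4%, and those lower 2.86%, 9.38%, 8.57%, 11.1% and 10.9%. In antigen presentation 38.9% of members changed, near the 40.9% over all genes. The ATF4 response had 18 of 35 higher and 1 lower, but its median was 0.21 in sh4 and 0.15 in EV, and without doxycycline library 3 the counts were 16 and 7. Its member DDIT3, the stress factor CHOP, fell by 0.37, while STC2 rose by 0.90. CHAC1 rose by 0.90 in sh4 and its value in EV was 0.61, and the difference did not pass the test (edgeR adjusted p = 0.53). Endoplasmic reticulum stress genes had 11 of 32 higher and 3 lower. DNAJB9, a co-chaperone of the endoplasmic reticulum, had 18.7, 21.2 and 19.1 CPM in DMSO and 50.2, 47.6 and 40.3 CPM with doxycycline. SEC61B, a part of its protein channel, had 27.9, 28.5 and 27.7 CPM in DMSO and 13.3, 11.7 and 12.5 CPM with doxycycline. Every doxycycline library was higher for the former (log2 fold change 1.22) and lower for the latter (-1.16). Interferon-stimulated genes had 17 of 35 higher and 3 lower, with PARP12 (1.73) and the RNA sensor OAS3 (0.81) higher and the signal transducer STAT2 (-0.60) lower. Antigen presentation on MHC class I gave 5 higher and 2 lower of 18, and 3 and 3 without library 3, and its median was 0.053 in sh4 and 0.078 in EV. B2M, the light chain of all class I molecules, had 147, 162 and 166 CPM in DMSO and 61.3, 60.96 and 46.6 CPM with doxycycline, a fall with a log2 fold change of -1.49 ± 0.094 (edgeR adjusted p = 5.35e-09) beside the rise of TAP2. NF-kappaB and immediate early genes had 14 higher and 5 lower of 46, and 15 and 12 without library 3, with medians of 0.094 in sh4 and 0.11 in EV. The orphan receptor NR4A2 rose by 1.47 and the small GTPase GEM fell by 0.98. In protein quality control more members fell than rose, with 11 of 36 proteasome subunits lower and 0 higher (17 lower without library 3, PSMA7 -0.45) and 13 of 41 cytosolic chaperones lower and 5 higher (CHORDC1 -0.62). Spliceosome and hnRNP genes had 14 of 68 lower and 4 higher (24 and 7 without library 3). The shares lower in these 3 lists were 30.6%, 31.7% and 20.6%, against 18% over all genes. In all 30.6%, 43.9% and 26.5% of their members changed, so that only the chaperones reached the 40.9% over all genes.

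Partners of RUNX1T1 and chromatin regulators moved little as lists. Of 25 co-repressor genes 6 rose and 4 fell (median -0.070), shares near those of all genes. HDAC1, a histone deacetylase, had 135, 140.1 and 137 CPM in DMSO and 166, 169 and 167 CPM with doxycycline. RCOR1, the CoREST scaffold, had 37.4, 39.1 and 39.7 CPM in DMSO and 28.1, 28.5 and 26.3 CPM with doxycycline. These small shifts of 0.28 and -0.49 lay beyond the spread, since the libraries of a group agreed closely, and the zinc finger gene ZMYM2 rose by 0.35. With the GC and length trends removed the list had 8 higher and 11 lower. Polycomb genes had 8 of 30 higher and 5 lower, with SUZ12 (0.47) and CBX7 (1.099) higher and CBX6 (-0.92) and PCGF3 (-0.50) lower. In the MYC and MAX network 3 of 11 rose and 2 fell (4 and 4 without library 3). MYCN had 2323, 2218 and 2035 CPM in DMSO and 3246, 3202 and 4089.7 CPM with doxycycline, highest in doxycycline library 3 (log2 fold change 0.68). MYCL, its relative of low level, had 0.903, 0.787 and 1.15 CPM in DMSO and 2.196, 2.67 and 2.43 CPM with doxycycline. Both rose without overlap (1.37 for MYCL), while MAX (-0.22), the partner of MYC proteins, and MXD1 (-0.68), which competes with them for MAX, fell. The small RNA pathway, by which hairpins act, had 11 of 21 higher and 3 lower. LIN28A, which blocks let-7 maturation, rose by 1.59, and AGO2 and DICER1, the slicer and the processing enzyme of small RNAs, fell (log2 fold changes -0.51 and -0.33). The difference of the DICER1 effect from EV did not pass the test (edgeR adjusted p = 0.114).

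The median log2 ratio to DMSO of each doxycycline library was also taken by list. For ribosomal proteins, snoRNA hosts, respiratory complexes, the neuronal cytoskeleton, collagens and receptors the median of library 3 had the sign of those of libraries 1 and 2. For axon guidance the medians were -0.14, -0.0074 and 0.27 in libraries 1 to 3. For the MYC and MAX network they were -0.20, -0.096 and 0.21, and for potassium channels -0.13, -0.026 and 0.14. Library 3 also lay above 0 and the others below it for synaptic vesicle genes (-0.19, -0.14 and 0.033), RUNX1T1 partners (-0.13, -0.10 and 0.028) and cholesterol genes (-0.13, -0.12 and 0.023), or 6 of the 41 lists of gene function in all. The opposite held for aminoacyl-tRNA synthetases, and the part of the GC trend of library 3 in these signs was not tested.

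**Figure D5:**
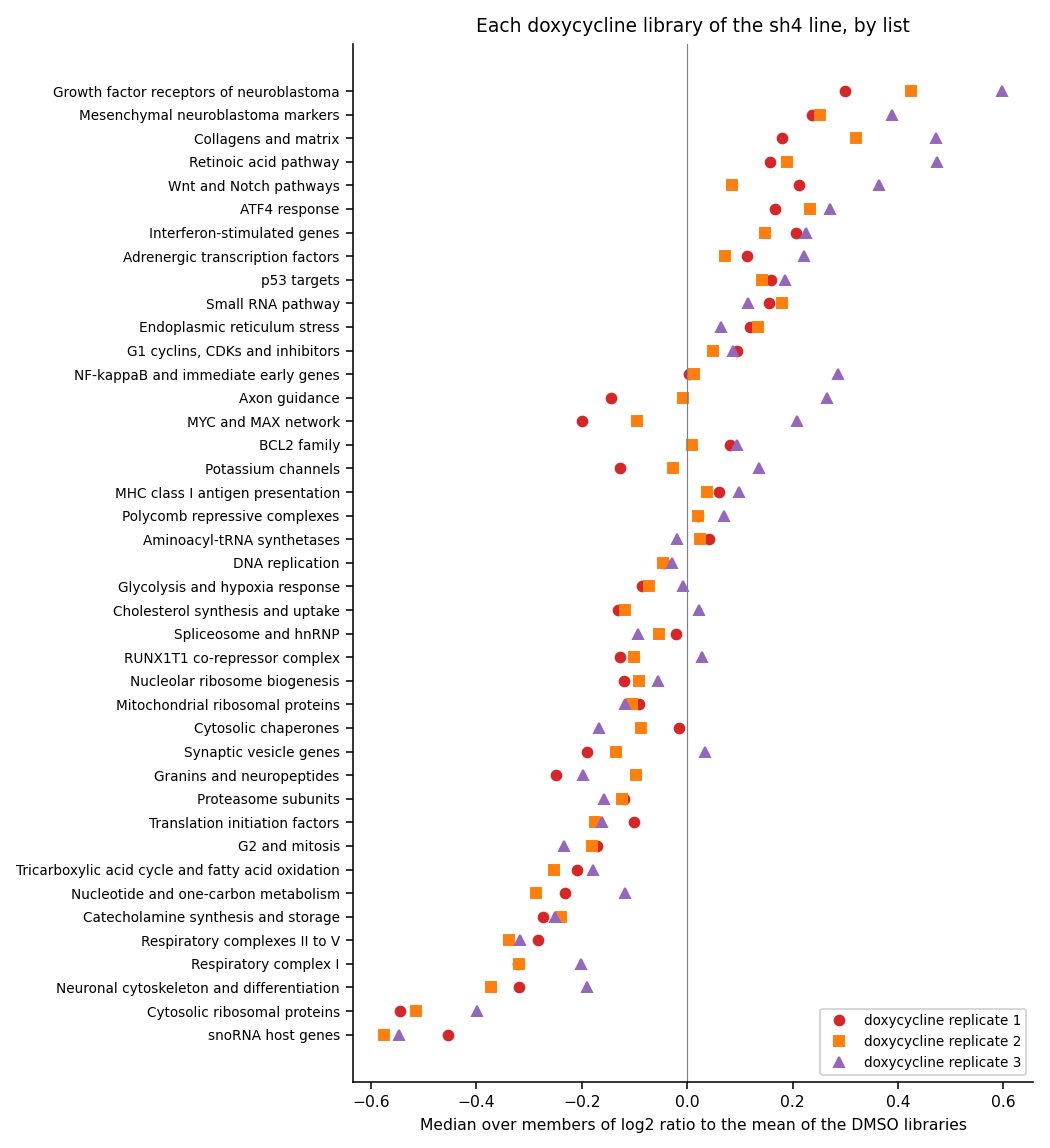
Median over the members of each list (y axis) of the log2 ratio of each doxycycline library to the mean of the DMSO libraries (x axis), with a colour and shape per replicate. All 3 libraries lie below 0 for ribosomal proteins and snoRNA hosts and above 0 for growth factor receptors and collagens, while library 3 lies apart for axon guidance and the MYC and MAX network.

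Of the genes described above, 114 were chosen by the rule given in the methods and changed, with edgeR adjusted p-values up to 0.00725, and the standard errors of their log2 fold changes lay between 0.031 and 0.35. At least 15% of the exon bases of TAP2, HIGD1A, MAX, CBX7, PCGF3, VIP, MAB21L1, PDGFRA, NDUFC2, DDIT3, CCNE2, CDK2, SNHG16 and HAND2 lie under another gene in the annotation, and whether counting used the strand is not stated, so their levels may hold reads of a neighbour. The doxycycline effect differed from that in EV for all of the 114 but HAND2, SNHG16, DICER1 and CHAC1.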

How the data were processed

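RNA of KELLY cells was sequenced on a NovaSeq after ribosomal depletion with the SMARTer Stranded Total RNA-seq kit. The labels name the molecule as polyA RNA, and these descriptions were not reconciled. Per the submitters' processing notes, STAR, SAMtools and RSEM were used with genome build hg38. The study's methods give versions of these tools for its mouse ganglia, while those for the KELLY libraries, and whether counting used strand, are not given in the sources used here.

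The deposited tables hold RSEM expected counts per gene, which the authors did not normalize, and TPM, which the authors scaled for gene length and library. A deposited column of gene length in bases, also from RSEM, is of the unit called other here and was used for the length trend. Expected counts (91.8% of values whole within 0.005) were rounded. Genes were filtered with filterByExpr, scaled by TMM and tested two-sided with the quasi-likelihood test of edgeR 4.0.16 (R 4.3.3), in 1 fit of the 18 culture libraries (sh4, EV and shAMB, 6 each) with a mean per group and Benjamini-Hochberg adjustment over 14905 of 26485 genes. A gene changed where the adjusted p was under 0.05. CPM use the TMM-scaled library sizes. Log2 ratios of single libraries used CPM plus 0.5. Summaries were made in Python 3.11.15 with pandas 2.3.3 and numpy 2.4.6. Exon GC content, positions and overlaps (bedtools 2.31.1) came from GENCODE release 44, which matched 25286 genes. The test was checked on simulated data.

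Genes were named by a rule. It takes RUNX1T1, the 12 largest rises and 12 largest falls of genes of 1 CPM or more on average that changed with and without doxycycline replicate 3, did not overlap and differed from EV in the same direction, and up to 2 members per list and direction that changed, had at least 1 CPM and did not overlap. The genes that went the opposite way in doxycycline replicate 3 had at least 5 CPM and a log2 size of at least 0.5. Marker lists were treated as lists. Some genes that the rule names are not reported here. The genes with printed sequences were named for their start sites, after their values were seen. Members and gene lists were chosen with earlier results of these data known, so counts in lists are no independent support.

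Alternatives were RLE and upper quartile scaling, no filter, DESeq2 1.42.0, fits of 12 or 6 libraries, removal of each library's trends on GC content and length, replicate number as a block, a minimum log2 size of 1, the deposited TPM for RUNX1T1 and leaving out each sh4 or EV library in turn. The shAMB libraries were not left out singly. Removing the trends together with leaving out doxycycline replicate 3 was added after seeing the data. Replicate pairs of sh4 differed beyond sampling noise (chi-square per degree of freedom 6.37 to 66.1), so all were counted as separate libraries. Xenograft libraries were not used here.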

Additional observations from a re-analysis of the deposited data

Results flagged for a closer look

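The doxycycline effect differed between the sh4 line and the EV line for 4856 genes by edgeR's test of the difference itself (adjusted p under 0.05), and this is what set apart every gene given here. Each value is the log2 fold change in sh4 minus that in EV, and all passed that test. Groups of 3 libraries were not searched for outlying samples.

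Of the genes that rose most, the difference was 2.06 for FLI1, 2.76 for APCDD1L, 1.14 for NTRK2 and 3.06 for LRIG3. It was 2.84 for CRH, 2.89 for HSF2BP, 2.63 for VWF and 2.53 for COL6A5, and 2.51 for CARTPT, 2.27 for TAP2, 2.31 for LINC00528 and 2.45 for LINC01024. Of those that fell most, C12orf75 differed by -3.20, CHRM1 by -3.32, DHRS2 by -2.47 and TRANK1 by -2.61. CPT1A differed by -2.16, HIGD1A by -2.19, ADAM9 by -2.10 and KCNAB1 by -2.28, and AKR1C1 by -2.26, ETHE1 by -2.41, SCRT1 by -2.35 and VSTM2L by -2.06.

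In the translation lists RPL13A gave -1.28, SNHG3 -1.58 and LRRC75A-AS1 -1.098. NOLC1 gave -0.71, RRN3 -0.39, EIF5A -0.66 and EIF5A2 0.83, beside -0.65 for MRPL10 and -0.98 for QARS. Among mitochondrial and metabolic genes the difference was -1.28 for NDUFC2, -0.80 for NDUFS6, -0.99 for UQCRC1, -0.77 for COX5B and -0.79 for IDH2. It was -1.42 for SMS, -1.81 for OAZ1, 0.74 for ADSS and 0.81 for PFKFB3, and 1.297 for INSIG1, 0.64 for MSMO1 and -0.55 for SC5D.

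Neuronal genes with a positive difference were HAND1 (0.91), ISL1 (0.43), INSM1 (0.83), CYB561 (0.55), DCLK1 (0.71), NRXN3 (1.11) and PLXNC1 (1.42). Negative ones were DACH1 (-0.51), KLF7 (-0.37), DDC (-0.71), QDPR (-0.76), STMN2 (-0.73), MAPT (-0.95), MAB21L1 (-0.87), SST (-1.07), VIP (-0.88), NLGN3 (-1.39) and SEMA6A (-0.79). For receptors, matrix and mesenchymal genes the values were 0.92 for PDGFRA, 1.42 for WNT3, 1.39 for COL19A1, 1.31 for COL27A1 and -1.08 for TIMP1, and 1.502 for PRRX1, 1.82 for PROM1, -0.57 for CDH2 and 2.12 for CRABP2.

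Cell cycle genes gave 1.11 for CCNE1, 0.93 for CCNE2, 1.04 for E2F7, -0.71 for CDK2 and -0.71 for E2F2, with -0.98 for MCM4, -1.01 for FAM83D and -1.09 for MYBL2. BTG2 differed by 1.39, DDB2 by 0.71, BCL2L11 by 1.42, HRK by 1.43 and BCL2L13 by -0.48. In the stress and immune lists STC2 differed by 0.81, DDIT3 by -0.47, DNAJB9 by 1.25, SEC61B by -1.16, PSMA7 by -0.54 and CHORDC1 by -0.53. PARP12 differed by 2.21, OAS3 by 0.80, STAT2 by -0.70, B2M by -1.49, NR4A2 by 1.45 and GEM by -0.93.

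Regulators with a positive difference were HDAC1 (0.26), ZMYM2 (0.39), SUZ12 (0.57), CBX7 (0.93), MYCN (0.61), MYCL (1.38) and LIN28A (1.28). RCOR1 (-0.42), CBX6 (-1.04), PCGF3 (-0.50), MAX (-0.30), MXD1 (-0.54) and AGO2 (-0.60) had a negative one.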

How the results depend on the processing

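Between 3727 genes (the 6 sh4 libraries alone) and 8625 genes (GC and length trends removed and doxycycline replicate 3 left out) changed in the sh4 line under the alternatives, and 750 with a log2 size of at least 1. Leaving out 1 sh4 or EV library at a time gave 4875 to 8050 genes, the highest without doxycycline replicate 3, and 3753 to 7557 genes that differed from EV, the highest without the same library. The latter number was 7428 with that library left out and the trends removed and 838 with a log2 size of at least 1. In EV 14 genes changed, 7 to 18 with 1 library left out, and under the other alternatives from 2 (replicate block) to 74 (trends removed and sh4 doxycycline replicate 3 left out). The RUNX1T1 log2 fold change ranged from -0.16 to -0.076 with 1 library left out and passed the test without doxycycline replicate 2 (-0.16, edgeR adjusted p = 0.0434). It also passed with the trends removed (-0.22), and with doxycycline replicate 3 left out as well (-0.19, edgeR adjusted p = 0.00436), and its direction turned in the mean deposited TPM (a log2 ratio of 0.064, with no test). The cause was not tested. Deviations of same-numbered sh4 libraries from their group means correlated across genes at -0.83, -0.047 and -0.87, and no library correlated best with its own number. The libraries of a group also differed in GC slope, which enters these correlations, so they cannot show whether cultures were paired. Replicate number was therefore left out of the main fit and used as a block in an alternative. With the replicate block 4366 genes changed and 2713 differed from EV, and no named gene lost its call. Of the 114 named genes that changed, 109 had the same call under all 15 settings. MAX, TIMP1, NDUFS6, CHAC1 and SNHG16 missed the threshold with 6 libraries alone. NDUFS6 also missed it with the trends removed. The 114 were named for a change in the main fit and for groups that did not overlap. Those with the largest changes also had to change without doxycycline replicate 3, which is among the 15 settings. That most kept their calls, also with the replicate block, is thus no independent support. Counts of members changed moved by over 1.5 times in 18 of 41 lists with the trends removed, 19 with doxycycline replicate 3 left out as well, 16 with 6 libraries alone, 9 without doxycycline replicate 3, 6 with the block and 0 under the other settings. With the trends removed, more members fell than rose among RUNX1T1 partners (11 against 8) and more rose than fell among potassium channels (16 against 13). The GC slope of doxycycline library 3 was 0.11 with RLE scaling. With 3 libraries per group and unknown origin of replicates, precision is limited by their spread, and for genes of low level such as FLI1 by depth as well.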
